A study of Rattus norvegicus with 8 samples.

Results

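The genes of transforming growth factor beta (TGF beta) and bone morphogenetic protein (BMP) signalling were examined in fetal rat testis after exposure to dibutyl phthalate (DBP), a plasticizer with known effects on the fetal testis. Members were taken by gene symbol from the array platform's gene table: Tgfb, Tgfbr, Bmp, Gdf, Smad, Acvr or Ltbp followed by a digit, symbols starting with Bmpr, Acvrl or Grem, and Nog, Chrd, Bambi and Id1 to Id4. This gave 48 genes of 14217 with a single-symbol probe set, measured by 78 probe sets of 31042. The probe set with the highest mean over all 8 arrays stood for a gene that had several. A further 2 probe sets that carry Gdf1 together with Cers1 were left out, since they name more than 1 gene.

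The testes came from male Fischer 344 rat fetuses at gestational day 20 and were profiled on 8 Affymetrix rat expression arrays, 1 array per sample. In the vehicle group (4 samples) dams were gavaged with corn oil at 1 ml/kg, and in the DBP group (4 samples) with 50 mg/kg of DBP in the same volume of corn oil. Dams were dosed daily over gestational days 12 to 20, with testes collected 6 h after the last dose. The question was which testis transcripts differ at this dose. Nothing states that the samples of a group came from separate dams, so the p-values reflect the spread among these samples, which may be technical. With 4 arrays a group, precision is limited by that number.

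In this pathway secreted ligands bind pairs of type I and type II serine/threonine kinase receptors, which phosphorylate Smad proteins that enter the nucleus and regulate genes. TGF betas and activins act mainly through Smad2 and Smad3, and BMPs through Smad1, Smad5 and Smad9, with Smad4 as the shared partner. In the fetal testis, activins, TGF betas, BMPs and anti-Müllerian hormone (AMH) belong to this family and act on Sertoli cells, germ cells, Leydig cells and the Müllerian duct.

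Arrays were alike in median log2 value (6.08 to 6.13) and RNA integrity number (8.6 to 8.8). DBP replicates 3 and 4 stood apart: their poly-A spike-in controls averaged 4.84 and 4.79 on the log2 scale, against 6.46 to 7.17 on the other 6 arrays. Changes are therefore also given for DBP replicates 1 and 2 and for replicates 3 and 4, each against the 4 vehicle arrays, which both share. Markers of Leydig cells (mean log2 value of the 7 genes 11.49 to 11.71 over all arrays) and of Sertoli cells (6 measured genes, 10.69 to 10.88) overlapped between the groups, and the testis genes Amh, Insl3, Cyp17a1 and Star averaged 12.66, 11.86, 12.64 and 10.81 in vehicle. The Leydig mean holds opposite differences, each without overlap: Insl3 gave -0.34 (adjusted p = 0.0732), Lhcgr -0.21 and Hsd3b1 0.17. The Sertoli mean does too: Inhbb gave -0.35 (adjusted p = 0.0614), Aard 0.24 and Clu 0.25, each without overlap. That list shares Amh and Inhbb with the pathway lists used here. Of the germ cell markers 3 of 8 were measured: Sycp3 gave 0.31 (adjusted p = 0.0972), Kit -0.18 and Nanos3 -0.06. Sox9 and Fshr were not analysed here. The stroma list (7 genes, collagens and Pdgfra among them) averaged 11.34 to 11.45 in vehicle, and 11.27, 11.40, 11.10 and 10.97 in DBP replicates 1 to 4; 6 of the 7 were lower, 2 at an unadjusted p under 0.05, and it shares Dcn, Lum, Postn and the collagens with the pathway lists. The erythroid list (6 genes) averaged 10.02 and 9.93 in DBP replicates 1 and 2 and 9.16 to 9.57 elsewhere, and the peritubular myoid list (6 genes) 8.96 to 9.23 in vehicle and 9.06 to 9.41 after DBP, with Acta2 and Tagln also in the TGF beta target list. Of 6 endothelial markers (7.49 to 7.51 in vehicle, 7.49 to 7.64 after DBP) Plvap rose by 0.36 (adjusted p = 0.0471) and Egfl7 gave 0.14 without overlap, with 3 of 6 lower. Of 7 macrophage markers (6.35 to 6.48 and 6.46 to 6.57) 6 were higher, 3 of them at an unadjusted p under 0.05 (Aif1, Fcer1g and Cd74, 0.26, 0.27 and 0.24). Of 6 adrenal markers (5.75 to 5.87 and 5.61 to 5.78) 3 were higher and 3 lower. Mrap fell by 0.60 (adjusted p = 0.029) and Chga gave -0.34, while Th gave 0.27 without overlap and Dbh 0.22. The part of these cells in the results was not tested. In tissue RNA, fewer cells of a type and less RNA per cell cannot be told apart.

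No member of the pathway passed the test after DBP. With limma's moderated test and Benjamini-Hochberg adjustment over all 31042 probe sets, 0 of 48 members had an adjusted p under 0.05, where 1.22% of all genes did. At that share less than 1 gene in 48 would be called, so the count is close to the background. Unmoderated t statistics also gave 0. Before adjustment 9 of the 48 had p under 0.05 in limma, where 19.1% of all genes did: 7 lower (background 7.84%) and 2 higher (background 11.3%). The other 39 members differed by at most 0.15 on the log2 scale.

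Most differences were small. The log2 change, DBP minus vehicle, ran from -0.70 (Bmpr2) to 0.34 (Bmp3), with a median of -0.03 against 0.02 over all genes, and 41 members differed by less than 0.2. For 45 members the 95% confidence interval lay within a 1.5-fold change either way (0.58 on the log2 scale). The other 3, Bmpr2, Id2 and Bmp3, have intervals that reach further. In the deposited scaling 30 members were lower and 18 higher, or 62.5% lower against 42.6% of all genes. With arrays shifted to the same median the members split 25 lower and 23 higher, or 52.1% lower against 35.7% of all genes, so the share of lower genes came down in both. The groups did not overlap for 3 members, Acvr1, Tgfbr1 and Nog, each with DBP lower (background 5.56%), and for 0 with DBP higher (background 7.31%).

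**Figure D1:**
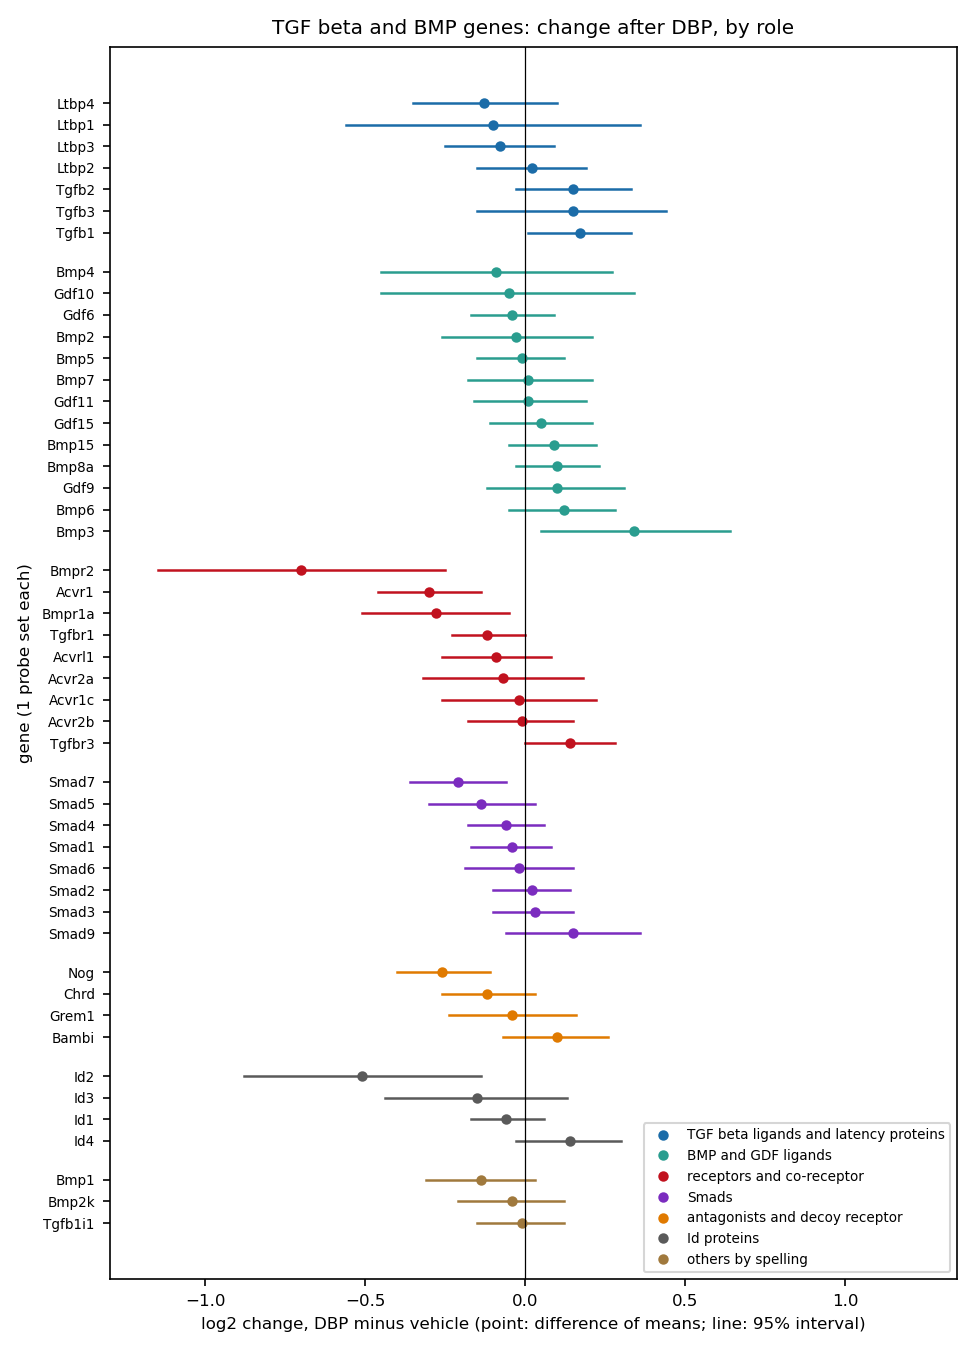
Log2 change (DBP minus vehicle, n = 4 arrays per group) of the 48 genes, grouped by role, with 95% confidence intervals of the limma fit as lines. Intervals of 9 genes, among them the receptors Bmpr2, Acvr1 and Bmpr1a, lie on a single side of 0 (that of Tgfbr1 ends at 0.00 after rounding), and none of the 48 passed after adjustment.

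The ligands showed little difference. Tgfb1, the TGF beta form best known from immune and matrix regulation, read 8.70, 8.56, 8.63 and 8.57 in vehicle replicates 1 to 4 and 8.64, 8.75, 8.93 and 8.81 in DBP replicates 1 to 4 (log2 values). DBP replicates 2, 3 and 4 lay above every vehicle array, and replicate 1 lay inside their range. The log2 change was 0.17 ± 0.071 (SE, n = 4 per group; limma adjusted p = 0.253), which is a 1.12-fold difference, made of 0.08 in DBP replicates 1 and 2 and 0.26 in the other pair. The other TGF betas were of like size, 0.15 for Tgfb2 (95% interval -0.03 to 0.33) and 0.15 for Tgfb3 (-0.15 to 0.44), and neither had an unadjusted p under 0.05. Tgfb3 gave 0.36 over DBP replicates 1 and 2 and -0.07 over the other pair, 0.04 without DBP replicate 2 and 0.25 without DBP replicate 4. Of the 7 macrophage markers 6 were higher after DBP and 1 lower, with a median change of 0.09. The 6 endothelial markers split into 3 higher and 3 lower, with a median of -0.01. The part of these cells in the Tgfb1 difference was not tested.

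Latent TGF beta binding proteins are a family in which some members tether the inactive ligand to matrix. Their changes were -0.10 for Ltbp1, 0.02 for Ltbp2, -0.08 for Ltbp3 and -0.13 for Ltbp4, with unadjusted limma p from 0.234 to 0.804. Ltbp1 varied most among the DBP arrays, at 8.67, 8.91, 8.41 and 7.73 in replicates 1 to 4 against 8.28 to 8.64 in vehicle. Its change was 0.26 over DBP replicates 1 and 2 but -0.46 over the other pair. The array with the lowest Ltbp1, replicate 4, also had the lowest stroma list (10.97), whose part in this was not tested.

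Of 13 BMP and GDF ligands, 8 were higher and 5 lower, with a median of 0.01. Bmp3, a BMP family member that opposes other BMPs in bone, had the largest difference, 0.34 ± 0.13 (SE; adjusted p = 0.222). Its values were 3.79, 3.93, 3.84 and 3.60 in vehicle and 3.98, 4.07, 3.92 and 4.56 after DBP, so that replicate 4 was highest and replicate 3 lay within the vehicle range. Without DBP replicate 4 the change was 0.20. These values lie near the low end of the scale. In all 11 of the 48 members had a mean under 5: Bmp3, Bmp5, Bmp8a, Bmp15, Gdf6, Gdf9, Gdf10, Gdf15, Acvr1c, Nog and Grem1. Bmp15 (0.09) and Gdf9 (0.10), growth factors known from the oocyte, belong to this dim group.

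Among brighter ligands, Bmp6 differed by 0.12, Bmp2 by -0.03, Bmp7 by 0.01 and Gdf11 by 0.01. The 4 probe sets of Bmp6 spread from -0.14 to 0.16. Bmp4, a BMP that supports early germ cell formation, read 6.15, 6.47, 6.64 and 6.67 in vehicle and 6.67, 6.58, 6.40 and 5.92 after DBP, a change of -0.09 (95% interval -0.45 to 0.27). DBP replicate 4 was lowest here too. The other ligands were Bmp8a (0.10), Gdf15 (0.05), Gdf6 (-0.04), Bmp5 (-0.01) and Gdf10, which gave -0.05 over all arrays, with 0.20 over DBP replicates 1 and 2 and -0.30 over the other pair.

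The receptors were the role with the most members at an unadjusted p under 0.05, 4 of 9, and each of the 4 was lower after DBP (all genes: 7.84% lower and 19.1% in either direction at that level). Of the 9, 8 were lower in the deposited scaling, 7 after quantile normalization and 6 with arrays shifted to the same median, beside 42.6%, 40.3% and 35.7% of all genes. Their median change was -0.09, with 0 of 9 past the adjusted threshold.

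Acvr1, a type I receptor used by several BMPs and by AMH, had the smallest p of all members. It read 8.59, 8.71, 8.64 and 8.61 in vehicle replicates 1 to 4 and 8.41, 8.48, 8.25 and 8.20 in DBP replicates 1 to 4. Every DBP array lay below every vehicle array. The change was -0.30 ± 0.073 (SE; 1.23-fold lower; unadjusted p = 0.00177, adjusted p = 0.0847), with -0.19 over DBP replicates 1 and 2 and -0.41 over the other pair, the arrays with the lowest stroma list. It passed when DBP replicate 2 was left out (-0.35, adjusted p = 0.044). The remaining probe sets of Acvr1 were lower by less, -0.12 and -0.09, with unadjusted p of 0.208 and 0.269, and the mean over the 3 was -0.17.

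Bmpr2, the type II receptor of the BMPs, had the largest difference in size. Its values were 7.72, 8.09, 8.13 and 7.51 in vehicle and 7.28, 6.54, 7.52 and 7.30 after DBP. DBP replicate 2 was by far the lowest, and DBP replicate 3 lay just above vehicle replicate 4. The change was -0.70 ± 0.20 (SE; 1.63-fold lower; 95% interval -1.15 to -0.25; adjusted p = 0.129), with -0.95 over DBP replicates 1 and 2 and -0.45 over the other pair. Leaving out 1 array at a time gave -0.82 to -0.50. With the RNA integrity number as covariate it was -0.89 and passed (adjusted p = 0.0447). A dimmer probe set of Bmpr2 (mean 4.37) went the other way, 0.17 with an unadjusted p of 0.0358, so the direction for this gene depends on the probe set. The mean over both was -0.27 (adjusted p = 0.269).

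Bmpr1a, a type I BMP receptor, read 8.90, 8.91, 9.18 and 8.81 in vehicle and 8.85, 8.45, 8.76 and 8.62 after DBP. DBP replicates 2, 3 and 4 lay below every vehicle array. Its change was -0.28 ± 0.10 (SE; adjusted p = 0.202), -0.30 over DBP replicates 1 and 2 and -0.26 over the other pair.

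Tgfbr1, the type I receptor of the TGF betas, differed by little but with tight replicates. It read 9.60, 9.63, 9.56 and 9.55 in vehicle and 9.45, 9.51, 9.47 and 9.44 after DBP, with no overlap. The change was -0.12 ± 0.052 (SE; 1.08-fold lower; adjusted p = 0.266). Its dimmer probe set was also lower, by a log2 change of -0.45 with a wide interval (-0.95 to 0.06), of which DBP replicates 3 and 4 gave -0.92 and the other pair 0.02; the mean over both probe sets was -0.28.

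**Figure D2:**
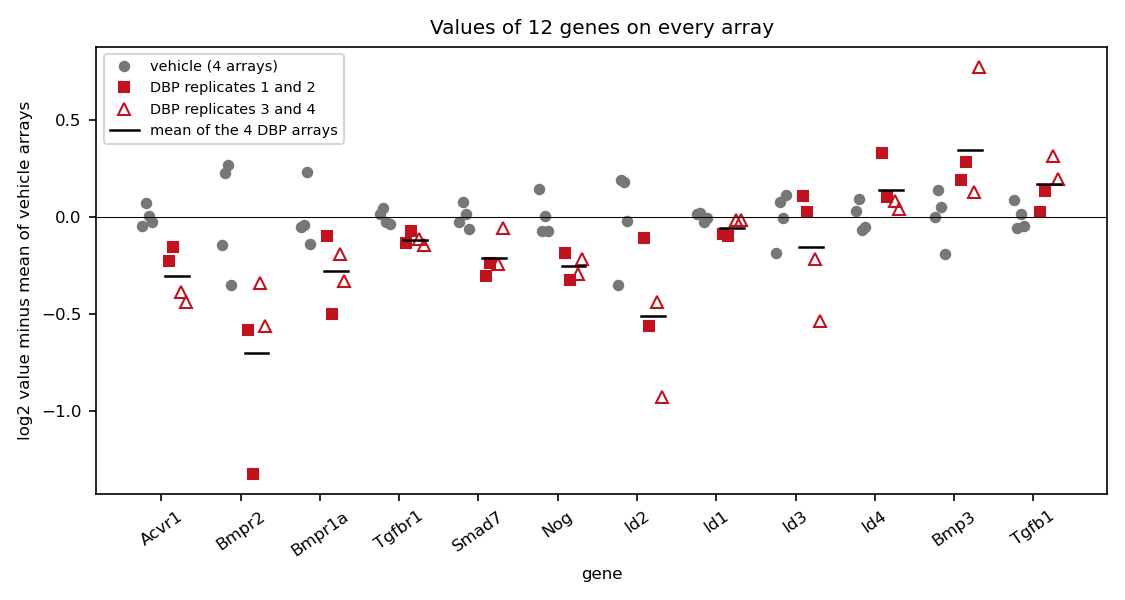
Log2 value on each array minus the mean of the 4 vehicle arrays, for 12 genes; circles are vehicle arrays, filled squares DBP replicates 1 and 2, open triangles DBP replicates 3 and 4, and bars the mean of the 4 DBP arrays. Acvr1, Tgfbr1 and Nog show no overlap between the groups, Bmpr2 is lowest in DBP replicate 2, and Id2 and Id3 are lowest in DBP replicate 4.

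The other receptors had unadjusted p above 0.05. Tgfbr3, betaglycan, a co-receptor that presents TGF beta and inhibin, was the 1 receptor with a higher mean, 0.14 ± 0.065 (SE; unadjusted p = 0.0553). Acvrl1, a type I receptor of endothelium, gave -0.09, the activin type II receptors Acvr2a and Acvr2b -0.07 and -0.01, and Acvr1c, a type I receptor for nodal and activin, -0.02. Tgfbr2, Acvr1b and Bmpr1b were not analysed here.

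Smads that carry the signal differed little. The TGF beta and activin Smads gave 0.02 (Smad2, 95% interval -0.10 to 0.14) and 0.03 (Smad3, -0.10 to 0.15), and the shared partner Smad4 gave -0.06 (-0.18 to 0.06). BMP Smads gave -0.04 for Smad1, -0.14 for Smad5 and 0.15 for Smad9. In Smad5 each of the 4 probe sets was lower, from -0.39 to -0.14, and 2 of them had an unadjusted p under 0.05 (0.0141 and 0.024). Those 2 gave -0.15 and -0.14 over DBP replicates 1 and 2, and -0.47 and -0.65 over the other pair. Smad9 differed between the pairs of DBP arrays, 0.32 for replicates 1 and 2 and -0.02 for the other pair.

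Smad7, an inhibitory Smad that is itself induced by the pathway, read 8.21, 8.31, 8.25 and 8.17 in vehicle and 7.93, 8.0, 7.99 and 8.18 after DBP. DBP replicates 1, 2 and 3 lay below every vehicle array, and replicate 4 lay within the vehicle range. The change was -0.21 ± 0.068 (SE; 1.16-fold lower; adjusted p = 0.161), with -0.27 over DBP replicates 1 and 2 and -0.15 over the other pair. Of its dimmer probe sets 1 was lower by a log2 change of -0.45 (unadjusted p = 0.00462, adjusted p = 0.118) and the other gave 0.04. The lower of these gave -0.28 and -0.61 over the same pairs, and its DBP replicate 2 lay within the vehicle range. Smad6, the inhibitory Smad of the BMP branch, read 6.43, 6.40, 6.65 and 6.67 in vehicle and 6.45, 6.56, 6.48 and 6.58 after DBP, with every DBP array inside the vehicle range. Its change was -0.02 (95% interval -0.19 to 0.15), and its 4 probe sets spread from -0.20 to 0.26.

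Nog encodes noggin, a secreted protein that binds BMPs and blocks them. Its values were 3.69, 3.47, 3.55 and 3.47 in vehicle and 3.36, 3.22, 3.25 and 3.33 after DBP, with no overlap. The change was -0.26 ± 0.067 (SE; unadjusted p = 0.00335, adjusted p = 0.108) and the same in both pairs of DBP arrays, on a probe set near the low end of the scale. Chordin (Chrd), which also binds BMPs, gave -0.12 (95% interval -0.26 to 0.03). Gremlin (Grem1) gave -0.04 and Bambi, a decoy receptor without a kinase domain, 0.10.

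The upstream sequences of Tgfbr1 and Nog are shown because these are the non-overlapping members with an entry in the RefSeq promoter table (build GRCr8); Acvr1 has none. Of the 48 members 41 had an entry. Each run is the 250 bases before the annotated start, written 5′ to 3′ on the gene's strand. Tgfbr1 lies on the plus strand at chr5:66449148-66449397 and Nog on the minus strand at chr10:74627502-74627751. Capitals mark GGCGCC, a GC-rich motif known to bind BMP Smads and its own reverse complement, and CAGAC or its reverse complement GTCTG, the core of the Smad3 and Smad4 motif.
Tgfbr1: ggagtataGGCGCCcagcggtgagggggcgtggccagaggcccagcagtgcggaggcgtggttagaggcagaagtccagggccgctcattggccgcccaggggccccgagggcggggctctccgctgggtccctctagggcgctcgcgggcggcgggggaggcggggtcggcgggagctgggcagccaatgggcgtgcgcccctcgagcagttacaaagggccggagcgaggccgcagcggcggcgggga
Nog: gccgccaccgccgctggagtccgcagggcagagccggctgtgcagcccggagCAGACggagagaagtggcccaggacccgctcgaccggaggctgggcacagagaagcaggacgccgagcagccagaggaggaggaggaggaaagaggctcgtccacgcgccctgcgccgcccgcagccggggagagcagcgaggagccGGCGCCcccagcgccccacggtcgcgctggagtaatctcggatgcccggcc

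GGCGCC was found in this window for 11 of the 41 members (26.8%), against 12.0% of 18999 protein-coding genes, and CAGAC or GTCTG for 10 members (24.4%) against 44.0%. The members' windows are richer in G and C, with a median of 64.8% against 54.0%, and whether this accounts for the motif shares was not tested. These letters describe the windows and do not show binding.

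Id proteins are helix-loop-helix factors without a DNA-binding region that hold back differentiation factors, and their genes are well known direct targets of BMP Smads. Here 3 of the 4 were lower and 1 higher, 1 of them (Id2) at an unadjusted p under 0.05 and 0 after adjustment. Id1 was the steadiest, at 10.08, 10.09, 10.04 and 10.06 in vehicle and 9.98, 9.97, 10.05 and 10.05 after DBP, a change of -0.06 (95% interval -0.17 to 0.06). Id3 read 9.55, 9.81, 9.73 and 9.85 in vehicle and 9.84, 9.76, 9.52 and 9.20 after DBP. Its change was -0.15 (adjusted p = 0.535), with 0.07 over DBP replicates 1 and 2 and -0.38 over the other pair, -0.03 without DBP replicate 4 and -0.24 without DBP replicate 1.

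Id2 had the second largest difference of all members. It read 8.80, 9.34, 9.33 and 9.13 in vehicle and 9.04, 8.59, 8.71 and 8.22 after DBP. DBP replicates 2, 3 and 4 lay below every vehicle array, and replicate 1 lay above vehicle replicate 1. The change was -0.51 ± 0.17 (SE; 1.42-fold lower; 95% interval -0.88 to -0.14; adjusted p = 0.167), with -0.34 over DBP replicates 1 and 2 and -0.69 over the other pair. A dimmer probe set of Id2 (mean 6.46) gave 0.11 with an interval of -0.37 to 0.58, and the mean over both was -0.20 (adjusted p = 0.518). Id4 read 5.08, 5.14, 4.98 and 5.0 in vehicle and 5.38, 5.15, 5.13 and 5.09 after DBP, a change of 0.14 (adjusted p = 0.353), or 0.07 without DBP replicate 1. Each of its 4 probe sets was higher, from 0.02 to 0.18. Their mean log2 values were 3.15 to 5.12, toward the low end of the scale.

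Upstream sequences of Id1 and Id2 are shown to set the steady BMP target beside the one with the largest difference. In both 250-base windows (GRCr8; Id1 on the plus strand at chr3:161671314-161671563, Id2 on the minus strand at chr6:47470996-47471245) neither motif occurs, so there are no capitals.
Id1: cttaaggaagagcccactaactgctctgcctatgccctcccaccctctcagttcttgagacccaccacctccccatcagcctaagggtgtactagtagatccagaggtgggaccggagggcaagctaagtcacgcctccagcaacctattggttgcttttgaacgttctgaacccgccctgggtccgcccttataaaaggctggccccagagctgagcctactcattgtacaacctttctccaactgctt
Id2: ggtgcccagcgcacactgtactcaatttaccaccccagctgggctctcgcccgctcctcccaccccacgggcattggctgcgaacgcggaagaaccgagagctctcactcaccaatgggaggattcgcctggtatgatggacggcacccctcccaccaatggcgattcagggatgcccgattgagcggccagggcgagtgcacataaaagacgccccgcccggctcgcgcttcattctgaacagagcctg

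The symbols also take in 3 genes that are neither ligand, receptor nor Smad. Bmp1, a metalloproteinase that trims procollagens and chordin, read 8.36, 8.37, 8.26 and 8.38 in vehicle and 8.21, 8.36, 8.01 and 8.23 after DBP, a change of -0.14 (adjusted p = 0.353), -0.08 without DBP replicate 3 and -0.06 as the mean over its 2 probe sets. Bmp2k, a BMP-inducible kinase, gave -0.04, and Tgfb1i1, the focal adhesion protein Hic-5, gave -0.01.

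Of the 20 members with several probe sets, 12 had probe sets that pointed 1 way and 8 had probe sets in both directions. Bmpr2 and Id2, the members with the largest differences, were among the 8.

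**Figure D3:**
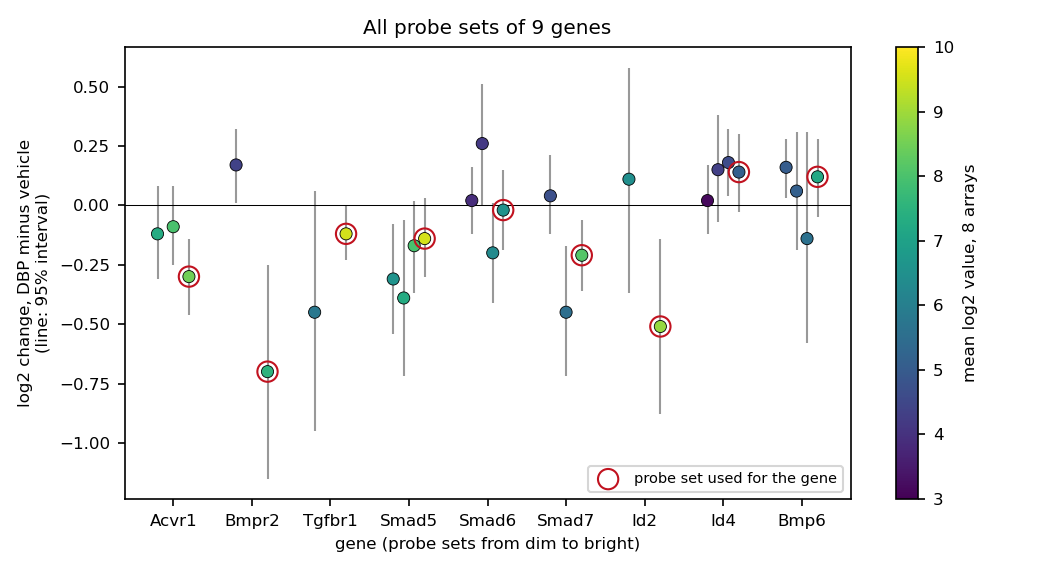
Log2 change (DBP minus vehicle, 95% interval as a line) of every probe set of 9 genes, ordered from dim to bright and coloured by mean log2 value; red rings mark the probe set that stands for the gene. Probe sets of Bmpr2 spread from -0.70 to 0.17 and those of Id2 from -0.51 to 0.11, while those of Smad5 all lie below 0 and those of Id4 all above.

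The pairs of DBP arrays gave different counts. DBP replicates 3 and 4 alone against vehicle gave 4 members past the threshold, Acvr1 (-0.41), Id2 (-0.69), Gdf10 (-0.30) and Tgfb1 (0.26), where 12.8% of all genes passed. Replicates 1 and 2 alone gave 1, Smad9 (0.32), where 1.67% of all genes passed. Both shares among members, 4 and 1 of 48, are near or below those backgrounds. Low spike-in signal, a narrower spread of values, a lower stroma list and DBP replicates 3 and 4 cannot be told apart here.

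Other genes of the pathway were counted from 5 lists outside the members. They hold 123 gene symbols, with older and newer names of the same gene counted apart. Of the 102 measured, 0 passed in limma over all probe sets, 0 by unmoderated t statistics, and 25 were under 0.05 before adjustment, 15 of them lower and 10 higher. Over all genes 1.22% passed, and before adjustment 7.84% were lower and 11.3% higher at 0.05; without overlap between groups, 5.56% were lower and 7.31% higher. The list counts that follow are to be read beside these shares. The median change of the 102 was -0.04.

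Among 25 extracellular modulators, 3 were higher and 5 lower at an unadjusted p under 0.05. Chrdl2, a chordin-like BMP binder on a dim probe set, gave 0.29 (adjusted p = 0.0915). Eng, endoglin, a TGF beta co-receptor of endothelium, gave 0.21. Of the 6 endothelial markers measured, 3 were higher and 3 lower, with a median change of -0.01. Their part in the Eng difference was not tested. Sostdc1, a secreted BMP and Wnt antagonist, gave -0.19 without overlap and Emilin1, a matrix protein that limits TGF beta maturation, -0.24. Of 36 Smad cofactors and intracellular regulators, 1 was higher and 4 lower at that level. The 1 higher, Cited2, a transcription coactivator that works with Smads, gave 0.31 without overlap between groups (adjusted p = 0.0789). Skil, a Smad corepressor and itself a TGF beta target, gave -0.24, also without overlap (adjusted p = 0.0983). Pmepa1, an inhibitor of TGF beta signalling, gave -0.25 and Map3k7, the kinase TAK1 of the Smad-independent arm, -0.23.

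Of 25 TGF beta targets, 4 were higher and 5 lower at an unadjusted p under 0.05. Junb gave 0.42 and the matrix protein Postn -0.56, each larger in DBP replicates 3 and 4 (0.61 and -0.86) than in the other pair (0.22 and -0.26). Postn gave -0.37 without DBP replicate 4. Of 12 BMP targets outside the members, Msx2, on a dim probe set, gave 0.21 (0.12 as a mean over probe sets) and Atoh8 -0.21 without overlap (adjusted p = 0.117). In the AMH and inhibin family 3 of 7 had an unadjusted p under 0.05, all without overlap; with 7 genes in the list this is a description of those genes. Inhbb and Inhba, the beta subunits that form activins and inhibins, gave -0.35 (adjusted p = 0.0614) and -0.18 (0.00 as a mean over probe sets), and Inhbc gave 0.18 on a dim probe set.

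**Figure D4:**
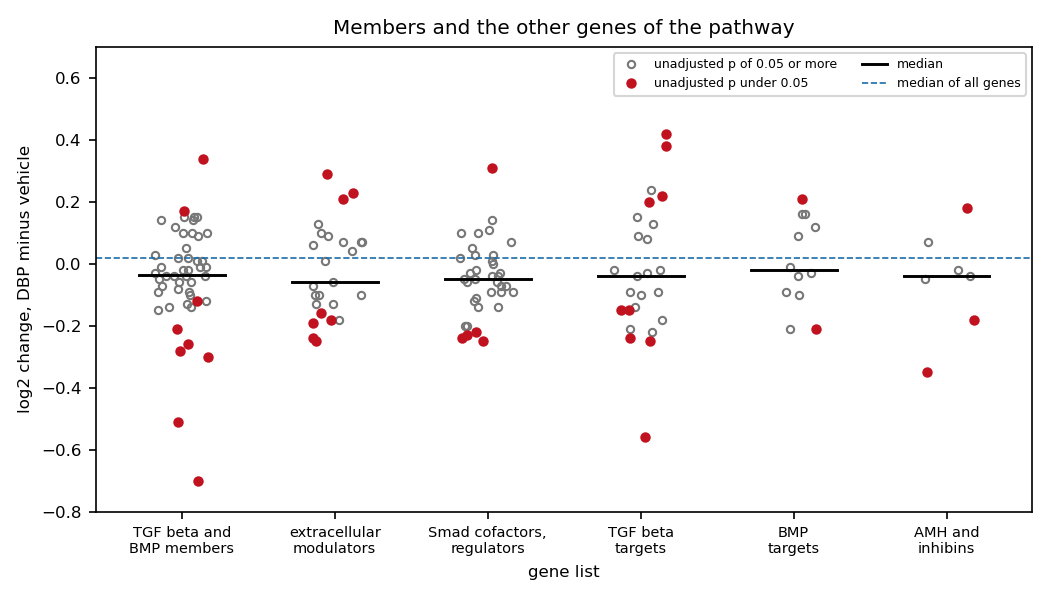
Log2 change (DBP minus vehicle) of the 48 members and of the genes in 5 further pathway lists, 1 point per gene; filled points have an unadjusted p under 0.05, bars are list medians and the dashed line is the median of all genes (0.02). List medians lie between -0.06 and -0.02, and filled points fall on both sides of 0 in every list.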

How the data were processed

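The deposited values are log2 signals, 1 per probe set and array. The submitters' processing notes name RMA as the authors' method and give no version. RMA corrects background, normalizes between arrays and combines the probes of a set, which can shrink differences of dim probe sets. No detection calls were used. Of 31099 probe sets, 57 are array controls and took no part, leaving 31042 in the test. The platform's gene table gave 20826 of them 1 symbol, 436 several and 9780 none; only the first kind was named. Symbols of all 48 members matched RefSeq (GRCr8) by gene ID.

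Groups were compared with limma 3.58.1 in R 4.3.3 (linear model, empirical Bayes without trend or robust options, 2-sided, Benjamini-Hochberg over all tested probe sets, threshold 0.05), and intervals are 95% intervals of that model. The procedure was tested on simulated data with independent noise, which did not hold the difference between pairs of DBP arrays seen here. Tables and figures were made with Python 3.11.15, pandas 2.3.3 and matplotlib 3.10.9. Members and gene lists were chosen with earlier results of these data known. Values on every array are given for members with an unadjusted p under 0.05, Id1 to Id4, Smad6, Smad7 and the member with the smallest p in each role; other pathway genes named are up to 4 per list with the smallest p. Ltbp1 and Bmp4 were given by array after their values were seen. Each array was left out in turn, and filters, scalings, moderation, covariates and array weights were varied.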

Additional observations from a re-analysis of the deposited data

Results flagged for a closer look

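In 1 of 28 groups of 4 arrays (14 members in 2 groups), 1 array lay far from the other 3 by Dixon's criterion. Bmp1 was 8.26 in vehicle replicate 3, against 8.36 to 8.38 on the other vehicle arrays. Chance alone gives about 1 such group in 20.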

How the results depend on the processing

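The member count stayed 0 under most alternatives. It was 1 with DBP replicates 1 and 2 only, 4 with DBP replicates 3 and 4 only (an alternative chosen after seeing the data), 1 with the RNA integrity number as covariate (Bmpr2), and 0 to 1 without 1 array at a time. The pathway lists gave 1, 15 and 1 under the same first 3 alternatives, 2 with array weights, 1 with either filter on dim probe sets, 1 with the mean over a gene's probe sets, 3 with a trend and robust prior, and 0 to 3 without 1 array at a time. Over all probe sets 331 passed, against 577 with DBP replicates 1 and 2 only, 4129 with replicates 3 and 4 only, 74 with unmoderated t statistics, and 82 to 606 without 1 array at a time (114, 122, 82 and 118 without vehicle replicates 1 to 4, 606 without DBP replicate 2 and 220 without DBP replicate 3). The cause of these differences was not tested.

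Same-numbered arrays do not share a stated origin, and the correlations of their deviations from the group means were 0.11, -0.08, 0.10 and -0.02 for numbers 1 to 4. With the replicate number as a block 175 probe sets passed and 0 members.

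Smad6, near 0, changed sign to 0.00 with arrays shifted to the same median, 0.01 after quantile normalization, 0.01 as a mean over probe sets, and -0.07 to 0.02 without 1 array at a time. Id3 gave 0.07 with DBP replicates 1 and 2 only and 0.07 with a term for DBP replicates 3 and 4, and Inhba 0.00 as a mean over probe sets. The other values of the 14 named members kept their sign in every alternative run, and 5 of 303 gained a call.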
